A study of Mus musculus with 39 samples.

Results

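The lists compared here are the glucocorticoid receptor (GR) binding sites of 7438 Afos mouse mammary cells given estradiol (E2) alone, set against those of untreated cells of the same line. They were chosen by label: 2 GR lists with E2 and 2 untreated GR lists, 4 of the 39 samples in the series. Cells of both groups expressed GR fused to GFP, the estrogen receptor (ER) fused to Cherry, and Afos from tetracycline-regulated promoters. All had been without tetracycline for 24 h, in medium with charcoal-stripped serum, before hormone. E2 was given at 100 nM for 30 min, and the untreated cells received no hormone. The ER lists of Afos cells with 100 nM E2 (2 lists) show where ER was bound, and the GR lists with 100 nM dexamethasone (Dex), with Dex+E2 (2 lists each), and the ER lists of untreated and Dex-treated cells (2 each) serve as further points of comparison. No input library was used here, and the receptors are tagged transgene products, which limits the cells as a model of receptors at natural levels.

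GR and ER are nuclear receptors, transcription factors that bind DNA and regulate genes when their steroid ligand is present. GR responds to glucocorticoids, of which dexamethasone is a synthetic one, and without ligand it is held largely in the cytoplasm by chaperones. ER responds to estradiol and lies mostly in the nucleus even without it. The labels leave the name Afos unexplained; a protein called A-Fos blocks DNA binding by AP-1 factors, which keep chromatin open at many receptor sites. Estradiol is not a ligand of GR at usual concentrations, so the comparison asks whether a hormone that activates the other receptor changes where GR is found.

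Each list row is a called site with its highest tag density, the authors' signal at the tallest point of the site, and a z-score, the authors' score. How density was scaled between lists is not stated, so strength is given as the authors' value and as the percentile of a site within its own list, where 100 is the strongest. Sites were called from whole cell populations, so a site bound in more cells and a site bound more fully per cell cannot be told apart. The read depth behind the lists is unknown. Labels do not say whether replicates came from separate cultures, so the spread between lists may be technical.

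GR was called at few sites in either condition, and the number of sites did not separate E2-treated from untreated cells. The GR lists with E2 held 490 and 146 sites, against 95 and 315 in untreated cells. The shorter E2 list lay between both untreated lists, so the groups overlapped. The means were 318 ± 243 sites with E2 and 205 ± 156 untreated (SD, n = 2 each), a ratio of 1.55 (exact permutation test, two-sided, p = 0.667; with 2 lists against 2 the smallest possible p is 0.333). The direction rested on single lists. The ratio was 0.712 without E2 replicate 1, 2.39 without E2 replicate 2, 1.01 without untreated replicate 1 and 3.35 without untreated replicate 2. Among sites with a z-score of at least 15 it was 2.34. For scale, GR lists of the same cells held 8873 and 5136 sites with Dex.

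Site strength, as deposited, overlapped in part. The median highest tag density was 11.8 and 10.4 in the E2 lists, against 13.4 and 8.93 in the untreated lists. The strongest site reached 139.6 and 35.4 with E2, against 45.6 and 25.8 untreated. The median z-score was 19.1 and 16.8 with E2 and 14.6 and 13.9 untreated. Both E2 lists thus had a higher median z-score than either untreated list, as deposited. Their median densities overlapped with those of the untreated lists, and so did their strongest sites, since only E2 replicate 1 stood above both untreated lists there.

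What differed was the position of the sites. With E2, almost all GR sites lay where ER was bound with E2. A reproducible ER E2 site, meaning one found in both ER lists, was present at 465 of 490 GR sites (94.9%, exact binomial 95% interval 92.6 to 96.7%) in E2 replicate 1 and at 121 of 146 (82.9%, 75.8 to 88.6%) in E2 replicate 2. In untreated cells it was present at 21 of 95 GR sites (22.1%, 14.2 to 31.8%) and at 29 of 315 (9.21%, 6.25 to 13.0%). Both E2 lists stood above both untreated lists. The mean share was 88.9 ± 8.50% with E2 and 15.7 ± 9.12% untreated (SD, n = 2 each), a difference of 73.2 percentage points, several times the spread between replicates. The exact permutation test gave p = 0.333, the smallest that 2 lists against 2 allow. Intervals cover counting error only, and sites of a list are not independent replicates.

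**Figure D1:**
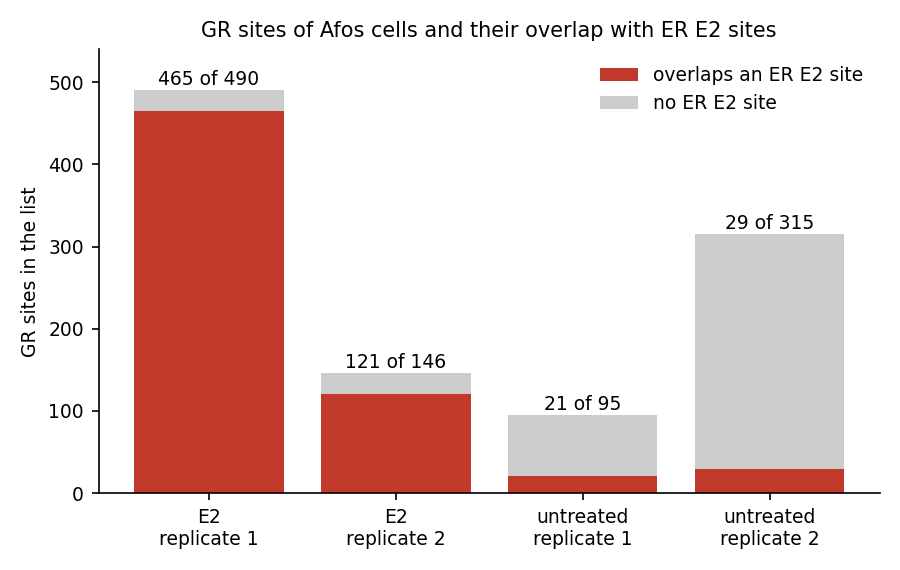
Number of GR sites in each list of Afos cells (vertical axis, sites), E2 lists on the left and untreated lists on the right, with the sites that overlap a reproducible ER E2 site in red. Red makes up 465 of 490 and 121 of 146 sites with E2, and 21 of 95 and 29 of 315 sites untreated.

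Overlap with GR sites called with Dex went the other way. Reproducible GR Dex sites were present at 50 of 490 and 21 of 146 GR sites with E2, against 57 of 95 and 125 of 315 untreated. The mean shares were 12.3 ± 2.96% with E2 and 49.8 ± 14.4% untreated (SD, n = 2 each), a difference of -37.5 percentage points (exact permutation p = 0.333, the smallest possible). The groups did not overlap. Reproducible ER sites of untreated cells were few in both: 3.11 ± 2.38% of GR sites with E2 and 4.90 ± 2.00% untreated had one (SD, n = 2 each; exact permutation p = 0.667). Untreated GR sites were thus more often places that GR occupied with its own ligand.

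The GR sites of E2-treated and untreated cells were largely different ones. The 4 lists merged into 825 regions. Both E2 lists and neither untreated list held 110 regions (13.3% of all regions), both untreated lists and neither E2 list held 56 (6.79%), and 24 (2.91%) were in at least 1 list of each treatment. Only 7 (0.848%) were in all 4. Within the treatments, 123 sites of E2 replicate 1 and 124 of E2 replicate 2 overlapped each other and merged into 122 reproducible E2 sites. In the same way 65 reproducible untreated sites were found. Of the 122, 90.2% (83.4 to 94.8%) were in neither untreated list and are called E2-only below, and 12 were in at least 1 untreated list. Of the 65 reproducible untreated sites, 86.2% (75.3 to 93.5%) were in neither E2 list.

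The E2-only GR sites coincided with ER. Of the 110, 108 (98.2%, 93.6 to 99.8%) overlapped a reproducible ER E2 site, next to 489 of all 825 regions (59.3%). No E2-only site was in both untreated ER lists or in both ER Dex lists, where ER had no added ligand (0 of 110 each, 0 to 3.30%). Only 12 reproducible ER sites were called in untreated cells and 17 with Dex. Few overlaps were thus possible, and these counts cannot show that ER was absent there without E2. The 56 untreated-only GR sites overlapped a reproducible ER E2 site in 6 cases (10.7%, 4.03 to 21.9%). Among all 4961 reproducible GR Dex sites the share was 245 sites (4.94%).

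The centres of the 2 receptors' sites nearly matched at E2-only sites. The distance from the GR centre to the nearest ER E2 centre had a median of 19.8 bp (quartiles 8.75 and 44.3 bp), and 102 of 110 sites were within 100 bp. For the 56 untreated-only sites the median distance was 73391 bp, and 3 were within 100 bp. The E2-only sites themselves had a median width of 715 bp, so these distances were small against the site. GR Dex sites lay a median of 100817 bp from the nearest ER E2 centre.

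**Figure D2:**
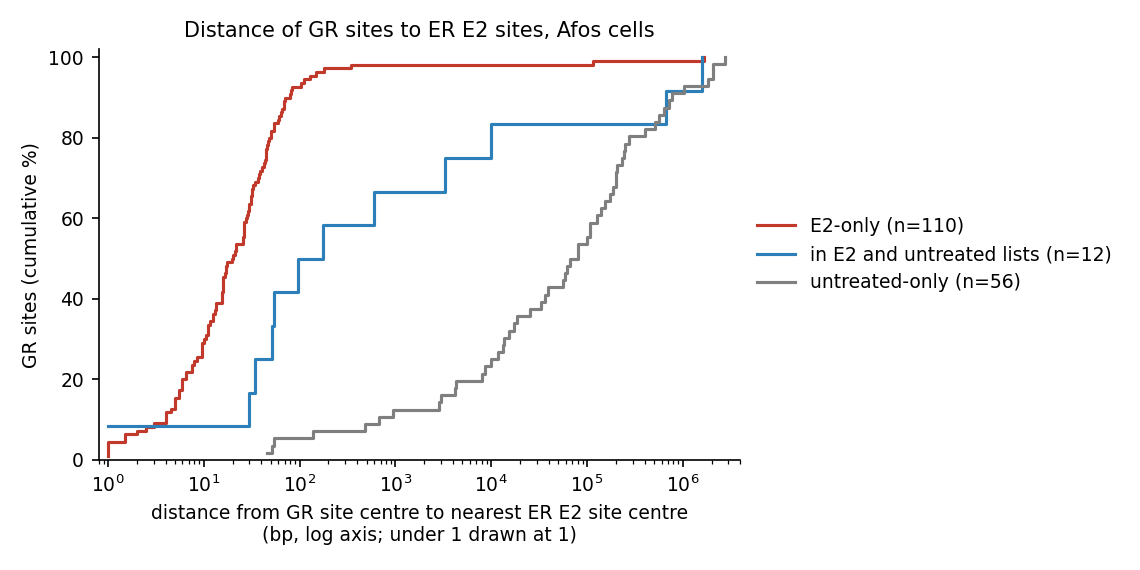
Cumulative share of GR sites (vertical axis, %) by distance from the centre of the site to the nearest reproducible ER E2 centre (horizontal log axis, bp) for E2-only, kept and untreated-only sites. The E2-only curve passes its median at 19.8 bp and the untreated-only curve at 73391 bp.

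Most E2-only GR sites lay among the strongest ER sites of the lists. In the ER E2 lists the ER sites under them had a median percentile of 99.0 in replicate 1 and 98.5 in replicate 2, and a lower quartile of 97.6 and 95.8. The weakest stood at percentile 72.9 and 50.4. Ranked by mean percentile among the 4271 reproducible ER E2 sites, the ones at E2-only GR sites had a median rank of 69 and ran from rank 1 to rank 1669.

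Seen from the ER sites, the presence of GR with E2 fell off with ER strength. All of the 51 strongest ER E2 sites had a GR site in at least 1 E2 list; the first without one ranked 52. Of the 50 strongest, 50 had GR in E2 replicate 1 and 44 in E2 replicate 2. Among the 50 sites ranked 51 to 100 GR was called at 43 in replicate 1 and at 20 in replicate 2. Among the 100 sites ranked 101 to 200 it was called at 73 in replicate 1 and at 26 in replicate 2. Both lists thus fell off with ER strength, the shorter one sooner.

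Among the 200 sites ranked 201 to 400 GR was called at 89 in E2 replicate 1 and at 8 in E2 replicate 2. At ranks 401 to 800 the counts were 94 and 5 of 400, and below rank 1600 they were 52 and 7 of 2671. Over all 4271 ER E2 sites GR was called at 10.7% (9.79 to 11.7%) in replicate 1 and at 2.79% (2.31 to 3.32%) in replicate 2. The share over either list, 10.8%, therefore rested on replicate 1.

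The same ER sites carried few GR sites in untreated cells at any strength. None of the 50 strongest, 1 of the next 50 and 1 of the 100 after those had GR in an untreated list, and 33 of all 4271 (0.773%) did. GR with Dex was called at 10 of the 50 strongest ER E2 sites, at 10 of the next 50, and at 182 of the 2671 weakest (6.81%). Counted over either list, the E2 share was above the Dex share down to rank 800 and below it from rank 801. That crossing depended on E2 replicate 1. With both lists required for each hormone, the E2 share was above the Dex share down to rank 200 (25 against 8 of 100 at ranks 101 to 200) and below it from rank 201 (8 against 24 of 200 at ranks 201 to 400). E2 replicate 2 alone was likewise below GR with Dex from rank 201. With Dex+E2, GR was called in at least 1 list at all 50 of the strongest ER E2 sites, at 317 of 400 ranked 401 to 800 (79.3%) and at 933 of 2671 below rank 1600 (34.9%).

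**Figure D3:**
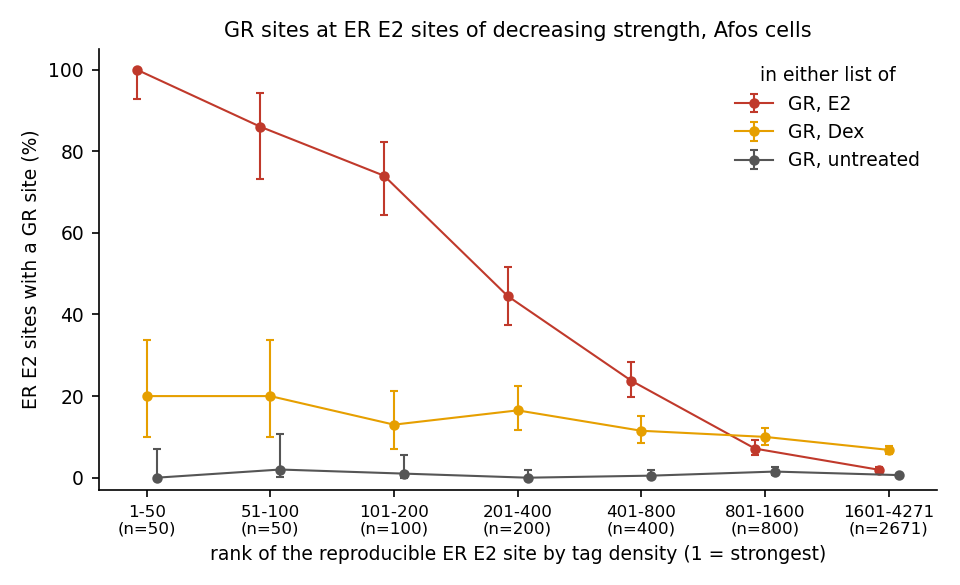
Share of reproducible ER E2 sites with a GR site in at least 1 of the 2 lists (vertical axis, %) by rank of the ER site (horizontal axis, strongest on the left), for GR with E2 in red, GR with Dex in orange and GR untreated in grey, with exact binomial 95% intervals. The E2 share is 100% at the 50 strongest and 1.95% below rank 1600, and mostly reflects E2 replicate 1 beyond rank 200, and the untreated share stays at or under 2.00%.

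At the E2-only sites GR density followed ER density. Over the 108 sites with ER, GR and ER densities of the same replicate number correlated with a Pearson r of 0.82 and 0.85 on the log2 scale and a Spearman rho of 0.78 and 0.81 (replicates 1 and 2). This is a description over sites, with no test: sites share the 2 lists, and both lists hold only sites above a threshold. GR density was a median of 19.9% of ER density in replicate 1 (quartiles 15.3 and 24.7%) and 14.2% in replicate 2 (11.3 and 18.3%). The scaling of either list is not known, so only the spread of this ratio over sites can be read.

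That ratio was also compared by whether GR used the site with its own ligand. Of the 108 sites, 15 were in at least 1 GR Dex list and 93 in neither. The median ratio of GR to ER density was 19.4% at the 15 and 20.04% at the 93 in replicate 1, and 13.1% and 14.2% in replicate 2. The interquartile ranges of the sets overlapped in both replicates. At the kept sites where ER was called, the same ratio had a median of 84.4% over 10 sites in replicate 1 (18.9 to 109%) and of 113% over 8 in replicate 2 (11.0 to 183%). These full ranges overlapped with those of the E2-only sites, 9.27 to 42.8% and 7.19 to 32.6%, only through the lowest kept sites. The lower quartile of the kept sites, 68.5% and 44.3%, lay above the highest E2-only value in both replicates. ER was weak at the kept sites, with a median density of 8.91 and 9.09, against 139 and 84.9 at the E2-only sites. The contrast in the ratio is therefore between sites of very different ER density. Whether ER-bound chromatin carried along in the GR precipitation contributes to the E2-only sites was not tested.

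**Figure D4:**
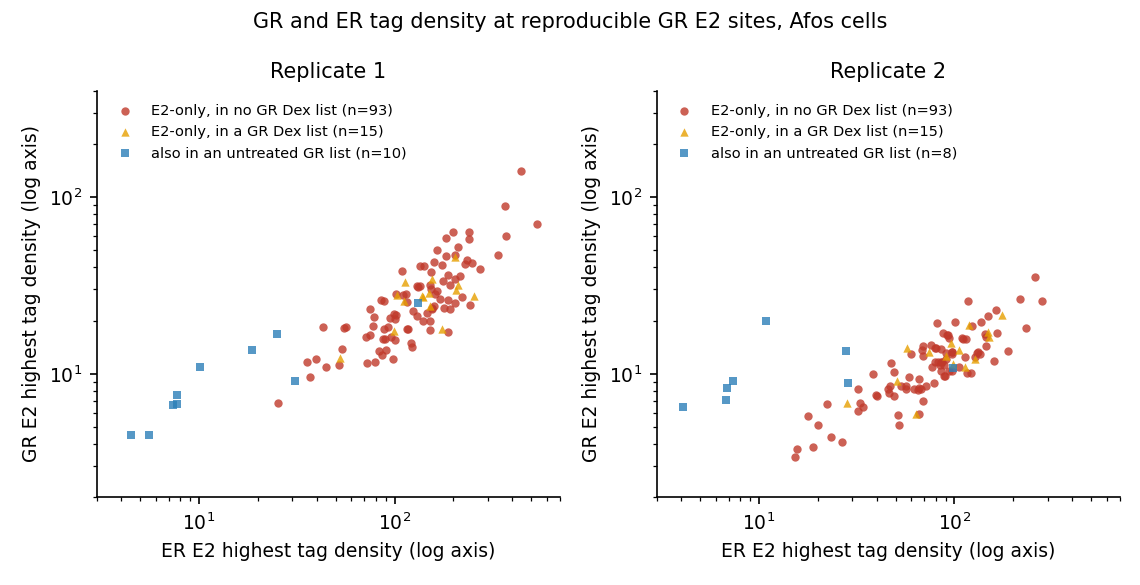
Highest tag density of GR (vertical log axis) against that of ER (horizontal log axis), both with E2, at the reproducible GR E2 sites where ER was called, 1 panel per replicate. Red and orange E2-only sites, without and with a GR Dex site, form 1 band that rises with ER (r = 0.82 and 0.85), and the blue kept sites lie mostly at low density of both receptors.

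The strongest E2-only GR site lay on chromosome 6 (mm9, 147073314 to 147074151). Its GR density was 139.6 and 35.4 in the E2 lists, and it was in no untreated and no Dex GR list. ER density there was 445 and 259 with E2, and GR density was 298 and 109.8 with Dex+E2. It was the strongest site of both GR E2 lists.

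The next, also on chromosome 6 (66484708 to 66485457), had a GR density of 70.5 and 25.9 with E2 and none called in untreated cells. It held the highest ER density of both ER E2 lists, 532 and 282. GR reached 234 and 97.0 there with Dex+E2. On chromosome 11 (79591888 to 79592647) GR density was 46.8 and 26.4 with E2, and ER density 336 and 216. On chromosome 12 (113819958 to 113820837) GR stood at 89.5 and 22.9 with E2, next to 365 and 163 for ER. None of these was in a list of GR with Dex or of untreated GR.

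Chromosome 1 held 3 of the 10 strongest E2-only sites. They lay at 121746325 to 121747201, with a GR density of 58.0 and 25.7, at 184430793 to 184431643, with 63.0 and 19.5, and at 188407628 to 188408344, with 34.3 and 21.3. The remaining 3 were on chromosome 19 (7224841 to 7225922; 47.2 and 19.7), chromosome 2 (25327886 to 25328638; 42.8 and 19.4) and chromosome 8 (124675793 to 124676553; 60.0 and 18.1). All 10 were absent from both untreated GR lists and both GR Dex lists, and present in both Dex+E2 GR lists. In the single GR E2 list of 7438 cells without Afos, 9 of the 10 were called as well. In Afos cells, E2 replicate 1 had the higher density at each of the 10. ER density at these 10 sites was between 158 and 532 in ER E2 replicate 1 and between 81.7 and 282 in replicate 2. Chromosomes 11 and 9 had the most E2-only sites, 10 each, which was 9.09% of the 110; they held 8.78% and 4.78% of the reproducible ER E2 sites.

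Most E2-only GR sites were called again when Dex was given with E2, and few with Dex alone. Of the 110, 108 were in at least 1 Dex+E2 GR list and 102 (92.7%, 86.2 to 96.8%) were reproducible there. Being called with Dex+E2 was not particular to them. Of the 56 untreated-only sites, 46 and 51 were in Dex+E2 GR replicates 1 and 2, and of the 12 kept sites 11 and 7. Reproducible GR Dex sites were present at 12 (10.9%, 5.77 to 18.3%). The median percentile of the E2-only sites within the Dex+E2 GR lists was 92.3 and 80.5, and within the GR E2 lists 87.8 and 59.8. The 15 sites in GR Dex replicate 1 had a median percentile of 85.3 there. ER remained at these sites with both hormones: 108 of 110 overlapped a reproducible ER Dex+E2 site, at a median percentile of 98.0 and 94.2.

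**Figure D5:**
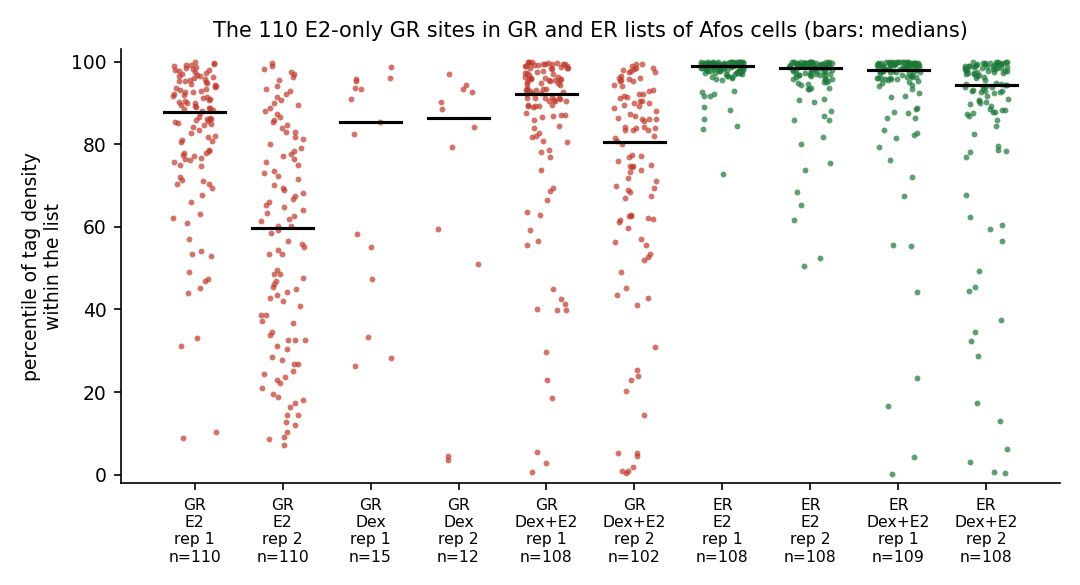
Percentile of highest tag density within its list (vertical axis) for each of the 110 E2-only GR sites in the GR lists (red) and ER lists (green) of Afos cells, with the number called under each list and a bar at the median. The sites crowd at the top of the ER E2 lists (medians 99.0 and 98.5), and only 15 and 12 of them appear in the Dex GR lists.

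The 12 kept sites, which by their definition were also in an untreated GR list, were mostly weak with E2, and most were also called for ER without E2: 8 in at least 1 untreated ER list and 10 in at least 1 ER Dex list. Within the E2 lists the E2-only sites had a median percentile of 87.8 and 59.8, against 28.5 and 37.7 for the kept sites. In density, E2-only sites stood at 2.72 times the kept sites in E2 replicate 1 (medians 25.2 and 9.25) and at 1.36 times in E2 replicate 2 (11.6 and 8.59). The mean of both ratios was 2.04. With E2 replicate 2 left out, all sites of replicate 1 counted, 467 E2-only and 23 kept, and the ratio was 1.22. It was also 1.22 without regions called for ER in untreated or Dex-treated cells, which left 2 kept sites. Reproducible sites of ER in untreated cells were present at 6 of the 12 and of ER with Dex at 7, against none of the 110 E2-only sites. There were only 12 and 17 such ER sites in all. ER with E2 was present at 8 (66.7%, 34.9 to 90.1%), and at 16.7% when the ER E2 list of 7438 cells without Afos was used in its place. In that list all sites were 150 bp wide and the lowest density was 10.0, so the lower share cannot be read as a difference between cells.

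The strongest kept site, on chromosome 15 (74915879 to 74916936), had a GR density of 13.7 and 19.9 with E2, against 18.3 and 19.9 untreated. ER density was 18.6 and 10.8 with E2 and 18.01 and 17.2 untreated. The region was thus called with either antibody and with no hormone. A kept site on chromosome 8 (72095825 to 72096344) had GR at 9.65 and 14.3 with E2, against 10.7 and 14.5 untreated, and ER at 11.1 and 6.36 untreated; it was in no ER E2 list. A kept site on chromosome 11 (108872929 to 108873527) had GR at 16.8 and 8.82 with E2, against 25.7 in untreated replicate 1 and no call in replicate 2.

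Another pair of kept sites was not called in the untreated or Dex ER lists. On chromosome 19 (57014023 to 57014686) GR density was 25.01 and 10.8 with E2, against 12.2 in untreated replicate 1 and no call in replicate 2. ER density there was 132 and 98.8 with E2, and GR was called with Dex at 27.9 and 15.9. On chromosome 12 (33866659 to 33867136) GR was lower with E2, at 9.14 and 13.5, than untreated, at 29.1 and 25.8, as deposited.

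Most untreated-only sites were also called for GR with Dex. Of the 56, 40 (71.4%, 57.8 to 82.7%) overlapped a reproducible GR Dex site and 51 a site of at least 1 GR Dex list. Among the 110 E2-only sites 12 (10.9%) overlapped a reproducible GR Dex site. The 12 kept sites were called in GR Dex replicates 1 and 2 in 8 and 9 cases. The 9 reproducible untreated sites also in an E2 list were called there in 7 and 9. Calls with Dex were thus not particular to the untreated-only sites. By list, the 56 were called in 50 and 41 cases with Dex, and about as often with Dex+E2, in 46 and 51. In the GR Dex lists they had a median percentile of 68.7 and 54.8. The strongest lay on chromosome 12 (51068927 to 51069612), with a GR density of 23.6 and 23.7 untreated and 34.5 and 19.1 with Dex. The next lay on chromosome 4 (59327744 to 59328950; 21.3 and 22.4 untreated, 48.9 and 33.0 with Dex) and chromosome 17 (75655164 to 75655845; 19.6 and 17.2 untreated, 30.8 and 15.3 with Dex). On chromosome 3 (83249929 to 83250666) the untreated density was 18.5 and 22.8, and only Dex replicate 1 had a call, at 13.1. On chromosome 15 (62159820 to 62160474) it was 19.3 and 16.6 untreated, against 86.5 and 45.6 with Dex. None of these 5 was in an ER list with E2.

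The 2 E2 lists differed in length by a factor that left most sites of the longer one unmatched, and the unmatched sites were also at ER. In E2 replicate 1, 367 sites were not in replicate 2. They were weaker than the 123 that were, with a median percentile of 40.2 against 85.8. Of the sites of replicate 1 found in no other GR list of the comparison, 341 overlapped a reproducible ER E2 site and 16 did not. In E2 replicate 2, 22 sites were not in replicate 1, with a median percentile of 9.08, and 3 of the 17 found in no other list overlapped ER.

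In 7438 cells without Afos, where a single GR list with E2 was used, the pattern was partly shared. That list held 326 sites, all 150 bp wide, and its lowest density was 10.02, so its length cannot be set against the Afos lists. ER E2 sites of the same cells were present at 199 (61.0%, 55.5 to 66.4%), and GR Dex sites at 165 (50.6%, 45.0 to 56.2%). Sites with ER stood higher in the list than those without, at a median percentile of 64.0 against 34.5. Of the 110 E2-only sites of Afos cells, 48 were in this list (43.6%), at a median density of 29.5 against 14.2 for the whole list, which ran to 98.4. Presence in this list was not particular to them. Untreated-only sites were called there too, such as the one on chromosome 15 (62159820 to 62160474) at 37.3. Of the 326 sites, 86 (26.4%) overlapped a GR E2 list of Afos cells and 48 (14.7%) an untreated GR list. The untreated GR list of 7438 was not used, because its name and its label give different treatments.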

How the data were processed

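ChIP-seq site lists were compared for GR in 7438 Afos cells: 2 lists with E2 and 2 untreated. Per the submitters' processing notes, the build was mm9 and CASAVA 1.8 was used. No source used here names the aligner, peak caller, control or threshold. Lists were made per sample. Per the file headers, each site carries its highest and average tag density, a signal of the authors with no stated scaling, and a z-score, the score deposited by the authors. The deposited p-values and 20 samples were not used here. Coordinates stand as in the lists, which do not say whether bases count from 0 or 1.

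Sites were matched by an overlap of at least 1 bp. A reproducible site is the merge of overlapping sites of both replicate lists; kept means overlap with at least 1 list of the other treatment. Percentiles are ranks of highest tag density within a list. Shares carry exact (Clopper-Pearson) binomial 95% intervals. Lists were compared by two-sided exact permutation tests. The matching was checked on simulated lists. Named sites are the 10 E2-only, 5 kept and 5 untreated-only sites of highest mean percentile; sites on chromosome 18 were counted and not named. The comparison, rules and sites were chosen with earlier results of these data known. Genes and sequences are not given, because no mm9 genome or annotation was used here. Alternatives were a reciprocal overlap of 50%, stronger sites, equal numbers of sites, same-numbered lists as blocks, one list left out at a time, other definitions of ER and Dex sites, and removal of regions called for ER without E2. With a list left out, all sites of the remaining list of its group counted as reproducible. Python 3.11.15, NumPy 2.4.6, SciPy 1.17.1, pandas 2.3.3 and matplotlib 3.10.9 were used.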

Additional observations from a re-analysis of the deposited data

How the results depend on the processing

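Of 104 values recomputed under alternatives, 81 kept their direction and, for values with no test, their interval or replicate spread, 22 moved and 1 reversed: the ratio of GR site numbers was 0.712 without E2 replicate 1 (range on leaving out a list, 0.712 to 3.35). The difference in ER overlap stayed positive in all 14 alternatives (46.5 to 84.0 percentage points), lowest with the ER E2 list of 7438, an alternative added after the data were examined. The share of E2 sites in neither untreated list was 98.5% for sites at or above the median density, 98.6% with equal numbers of sites, 98.2% without regions called for ER without E2, and 87.7% to 95.3% on leaving out a list. The share of untreated sites in neither E2 list was 94.8% without those regions and 85.3% to 93.7% on leaving out a list. ER at E2-only sites was 100% under each of the first 3 of these settings and at a z-score of at least 15, and 87.5% to 98.2% on leaving out a list. Without regions called for ER without E2, the 100% followed from the removal itself. The 2 E2-only sites lacking ER both lay in such regions. ER at kept sites rested on few sites: 0% (1 site) at or above the median density, and 100% with equal numbers (1 site) and without those regions (2 sites). It was 16.7% with the 7438 ER list, whose sites were all 150 bp wide with a density of at least 10.0. The median ER percentile was 99.3 (median density), 99.1 (z-score) and 99.2 (equal numbers), 98.3 with the 7438 ER list, and 93.7 to 99.0 on leaving out a list. The ratio of E2-only to kept density was 1.17 to 2.86 in its alternatives, against 2.04 on average.

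Replicates with the same number share only that number. With them as a replicate block the number ratio was 1.55. It is the geometric mean of 5.16 for replicate 1 and 0.463 for replicate 2, which went in opposite directions. As means over the blocks, the ER difference was 70.6 percentage points, ER at E2-only sites 92.1% and the median ER percentile 96.7. Over the 7 regions in all 4 lists, deviations of same-numbered lists correlated with r = 0.18. Equal numbers give no ratio of numbers. Causes of these moves were not tested. Depth is unknown, so an absent call may be a weak site.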

Other observations

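GR sites with E2 that had no reproducible ER E2 site were few and weak. There were 25 in each E2 list, at a median percentile of 3.16 in replicate 1 and 12.7 in replicate 2, against 52.6 and 55.8 for the sites with ER. In untreated lists, too, the sites without ER stood lower, at 45.8 and 47.9, against 71.1 and 70.6 for those with ER. Of the 25 sites, 10 in replicate 1 and 16 in replicate 2 overlapped an ER list of untreated or Dex-treated cells, and 7 and 9 overlapped an untreated GR list. The counts in none of the ER E2, untreated, GR Dex, ER untreated or ER Dex lists were 12 and 8.

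The 2 E2-only sites without reproducible ER lay on chromosome 8 (105211918 to 105212359; GR density 9.77 and 6.29 with E2) and chromosome 16 (3116178 to 3116632; 6.53 and 4.46), singled out after their values were seen. The first was called for ER in untreated replicate 2 at 7.84, and the second for ER with Dex in replicate 1 at 6.003. No other E2-only site was in an ER list of untreated or Dex-treated cells.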
